A study of Homo sapiens with 27 samples.

Results

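The comparison described here is whether overexpressed MAML3 lacking exon 1 (dEx1) changed RNA levels differently in a neuroblastoma line than in pancreatic neuroendocrine tumour lines. It is the dEx1 effect (dEx1 minus vector) in SK-N-SH, minus the mean of the dEx1 effects in BON-1 and QGP-1, on the log2 scale. It used the 18 dEx1 and vector libraries of the 27 in the series, in 6 groups of 3 biological replicates each, and every gene that could be tested except MAML3 itself. All 3 are established human lines: SK-N-SH comes from a neuroblastoma, and the other two, BON-1 and QGP-1, come from pancreatic neuroendocrine tumours. In the dEx1 groups of each line, cells were transfected with a pCMV6-AC plasmid carrying the MAML3 cDNA without its first exon, tagged with V5 at the C-terminus. In the vector groups, cells of the same line received the plasmid with no MAML3 sequence. All cells, vector groups included, were transfected with a lipid reagent, kept their own MAML3 gene and were harvested on day 3. Each line grew in its own medium, so line and medium cannot be told apart, and each tumour type is represented by 1 or 2 lines.

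MAML3 belongs to the Mastermind-like coactivators. In canonical Notch signalling these bind the complex of cleaved Notch and the DNA-binding protein RBPJ through their amino-terminal end and recruit further coactivators to target genes such as the HES and HEY repressors. Many genes that are prominent below are known as interferon-stimulated genes: interferon acts through JAK kinases and STAT and IRF transcription factors, which bind interferon-stimulated response elements and gamma-activated sites in promoters. Products of such genes inhibit viruses, present antigens on MHC class I molecules and regulate cell death.

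The 18 libraries held between 73026244 and 105303262 estimated counts. With dEx1 the totals were 84575626 to 91842622 in SK-N-SH, 97111371 to 105303262 in BON-1 and 84030641 to 97298951 in QGP-1, and with vector they were 85367579 to 97874108 for SK-N-SH, 73026244 to 87892041 for BON-1 and 79395945 to 92435640 for QGP-1. As sums, the markers followed the labelled lines. The 6 neuroblastoma markers summed to 139 to 243 CPM (counts scaled to library size) in SK-N-SH libraries. They summed to at most 32.3 CPM in the other libraries. The 6 pancreatic neuroendocrine markers summed to 2.27 to 20.4 CPM in SK-N-SH libraries, 12790 to 32670 CPM in BON-1 and 578 to 1311 CPM in QGP-1. Of these markers, INSM1 and RFX6 were at 0 in SK-N-SH. Not every marker followed the label. PAX6 averaged 0.46 CPM with dEx1 and 0.857 CPM with vector in BON-1, close to the 0.822 and 0.464 CPM in SK-N-SH. In each line some libraries stood apart. SK-N-SH vector replicate 3 lay on the dEx1 side of the first principal component, at 27.7 against -69.5 and -70.1 for vector replicates 1 and 2. Replicate 3 of the SK-N-SH dEx1 group was shifted the same way, at 75.6 against 29.8 and 6.48 for dEx1 replicates 1 and 2. BON-1 vector replicate 1 lay apart at -108 while the other 5 BON-1 libraries lay at 14.3 to 29.3. On the second component, BON-1 replicate 3 lay at -40.8 with dEx1 and -60.6 with vector. There, BON-1 dEx1 replicates 1 and 2 and vector replicate 2 lay at 33.6 to 38.2. On the first component, QGP-1 fell into a pair of clusters that did not follow the construct, with dEx1 replicates 1 and 2 and vector replicate 1 at 36.5 to 51.9 and the other 3 libraries at -50.6 to -40.8.

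MAML3 lies on hg19 chromosome 4 at 140637907 to 141075338, minus strand. Its exon 1, at 141074014 to 141075338, is the first of 5 exons and holds 468 of 3414 coding bases (13.7%). In SK-N-SH, MAML3 was at 9314, 13940 and 4886 CPM in dEx1 libraries, against 17.0, 30.1 and 18.6 CPM in vector libraries. In BON-1 it was at 3175, 3658 and 4090 CPM in dEx1 libraries, against 66.7, 70.8 and 63.2 CPM in vector libraries, and in QGP-1 at 2534, 5484 and 5054 CPM against 74.6, 38.8 and 95.2 CPM. Every dEx1 library was above every vector library, as the labels have it. The log2 fold change was 8.74 (SE 0.53) in SK-N-SH, 5.77 (SE 0.47) in BON-1 and 5.97 (SE 0.47) in QGP-1. The contrast for MAML3 was 2.87 (SE 0.48, adjusted p = 0.0152, edgeR's quasi-likelihood test with Benjamini-Hochberg adjustment), a difference in fold change to which the lower vector level in SK-N-SH also adds. The dEx1 levels themselves overlapped, since SK-N-SH dEx1 replicate 3 lay below QGP-1 dEx1 replicates 2 and 3. Gene counts cannot separate plasmid from native MAML3, the share of transfected cells was not measured, and a change in fewer cells and a smaller change per cell cannot be told apart. The part of construct dose in the results below was not tested.

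Of 16481 genes tested, 75 (0.455%) passed an adjusted p of 0.05 in the contrast. Of these, 70 (0.425%) were lower, meaning that the dEx1 effect was more negative in SK-N-SH than in the pancreatic lines, and 5 (0.0303%) were higher. The median contrast over all genes was 0.01. Of the 70 lower genes, 66 also fell with dEx1 in SK-N-SH. The contrast that selected them contains the SK-N-SH effect, so the selection raises this count. In SK-N-SH alone 323 genes passed (1.96%), of which 262 (1.59%) fell and 61 (0.37%) rose. In BON-1 and QGP-1 alone, 0 genes passed edgeR's test, with 764 and 542 at an unadjusted p under 0.05. DESeq2 called 41 and 81 genes there and limma 4 and 5, so these zeros do not show an absence of change. BON-1 and QGP-1 were not separable from each other by the same test either: 0 genes passed for the dEx1 effect in BON-1 minus that in QGP-1 (550 at an unadjusted p under 0.05, 31 by DESeq2, 0 by limma).

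Over the 48 lower genes with a mean of at least 2 CPM in dEx1 or vector of every line, the median contrast was -1.49. Their median dEx1 effect was -1.39 in SK-N-SH, -0.00 in BON-1 and 0.05 in QGP-1. The selection by the contrast fixes the direction of these medians, which describe only where the difference lay. Against BON-1 alone 20 genes passed (0.121%), 2 higher (0.0121%) and 18 lower (0.109%). Against QGP-1 alone 52 passed (0.316%), 4 higher (0.0243%) and 48 lower (0.291%). In SK-N-SH all 3 dEx1 libraries were below all 3 vector libraries for all 48 genes, which the selection also fixes. The same held in BON-1 for 1 of the 48 (2.08%, against 3.51% of all 9717 genes with that level) and in QGP-1 for 2 (4.17%, against 3.6%). All dEx1 libraries were above all vector libraries for 4 of them in BON-1 (8.33%, against 5.24%) and for 8 in QGP-1 (16.7%, against 4.99%), a share that the selection by the contrast can raise. With vector, 29 of the 48 were higher in the SK-N-SH vector group than in both pancreatic vector groups, against 35.5% of all genes at that level. The contrast that selected the 48 uses these same vector libraries, so the selection can raise this share too. Leaving out SK-N-SH vector replicate 3 raised the count of genes past the threshold to 376 (151 higher, 225 lower), and leaving out SK-N-SH vector replicate 1 lowered it to 29. All 75 genes passed again without replicate 3, and 25 of them passed without replicate 1. At the edge of the threshold, IFIT2 (adjusted p = 0.0472) and ETV7 (0.0491) were inside and GRIP2 (0.0502) and FAR2 (0.0507) outside.

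**Figure D1:**
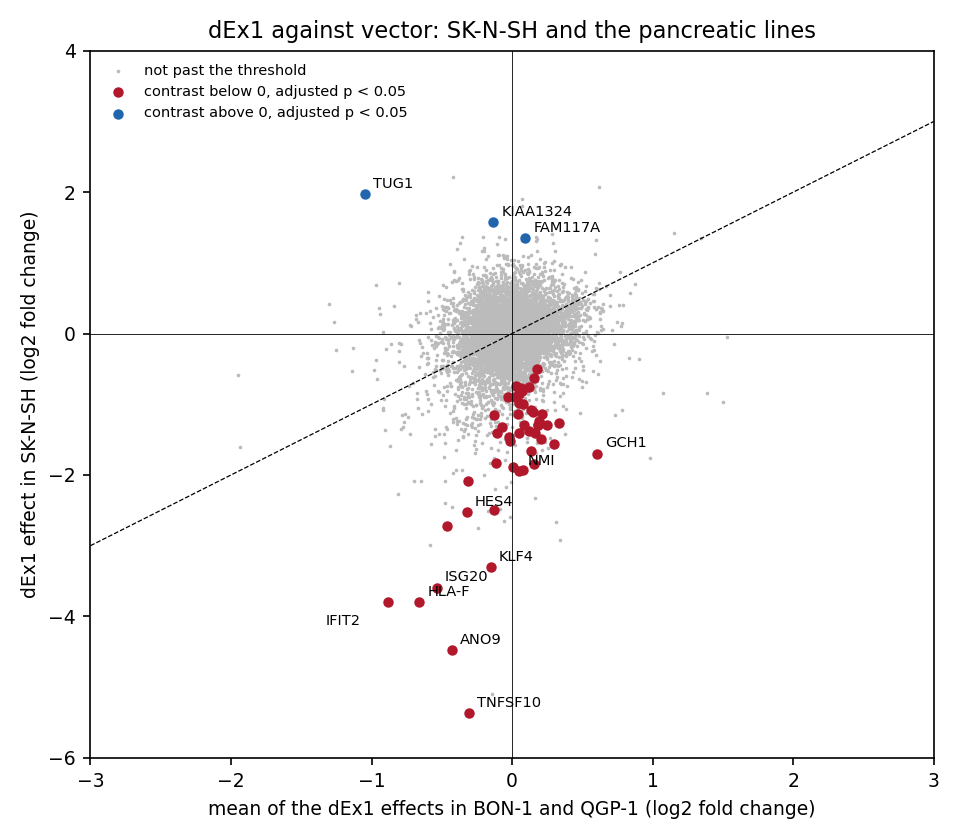
Each point is 1 of the 9717 genes with at least 2 CPM in dEx1 or vector of every line. The vertical axis is the dEx1 effect in SK-N-SH and the horizontal axis the mean of the effects in BON-1 and QGP-1, both as log2 fold change, and the dashed line marks equal effects. The 48 lower genes (red) lie below the line, most of them near a pancreatic effect of 0, and the 3 higher genes (blue) above it.

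The promoters of 5 genes that were lower in the contrast are shown because they hold letters that interferon-activated factors or RBPJ are known to bind. ISG20 follows the rule for named interferon-stimulated genes, and TNFSF10, NMI, CD274 and HES4 were chosen after their values were seen. Each runs 5′ to 3′ on the strand of the gene, from 250 bases before to 50 after its start (RefSeq, GRCh38.p14). Capitals mark the core of the interferon-stimulated response element (GAAA, any 2 bases, then GAAA again) on either strand, and in HES4 the RBPJ core TGGGAA. The positions are ISG20 at chr15:88638766-88639065 on the plus strand, TNFSF10 at chr3:172523381-172523680 on the minus strand, NMI at chr2:151289619-151289918 on the minus strand, CD274 at chr9:5450292-5450591 on the plus strand and HES4 at chr1:1000048-1000347 on the minus strand.
ISG20: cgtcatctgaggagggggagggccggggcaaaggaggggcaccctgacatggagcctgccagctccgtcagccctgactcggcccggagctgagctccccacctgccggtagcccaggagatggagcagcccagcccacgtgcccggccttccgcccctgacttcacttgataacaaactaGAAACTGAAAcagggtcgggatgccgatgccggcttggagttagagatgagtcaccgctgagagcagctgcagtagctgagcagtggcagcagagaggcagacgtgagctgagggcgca
TNFSF10: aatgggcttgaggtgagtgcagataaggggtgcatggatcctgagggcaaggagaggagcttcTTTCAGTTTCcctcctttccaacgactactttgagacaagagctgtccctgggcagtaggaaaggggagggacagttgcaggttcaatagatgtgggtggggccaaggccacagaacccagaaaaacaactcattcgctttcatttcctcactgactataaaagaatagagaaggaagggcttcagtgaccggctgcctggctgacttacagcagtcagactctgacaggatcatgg
NMI: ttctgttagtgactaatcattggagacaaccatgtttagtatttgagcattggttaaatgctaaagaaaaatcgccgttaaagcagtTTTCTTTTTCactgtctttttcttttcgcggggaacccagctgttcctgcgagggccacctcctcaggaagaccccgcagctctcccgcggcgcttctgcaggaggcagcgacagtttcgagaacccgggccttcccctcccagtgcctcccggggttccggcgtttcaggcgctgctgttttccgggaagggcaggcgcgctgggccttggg
CD274: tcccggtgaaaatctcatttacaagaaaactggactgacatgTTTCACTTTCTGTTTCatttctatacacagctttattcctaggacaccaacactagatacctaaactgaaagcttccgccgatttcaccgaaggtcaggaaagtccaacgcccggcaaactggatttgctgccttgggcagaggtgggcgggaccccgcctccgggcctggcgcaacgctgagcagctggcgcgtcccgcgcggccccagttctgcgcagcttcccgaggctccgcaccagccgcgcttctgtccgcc
HES4: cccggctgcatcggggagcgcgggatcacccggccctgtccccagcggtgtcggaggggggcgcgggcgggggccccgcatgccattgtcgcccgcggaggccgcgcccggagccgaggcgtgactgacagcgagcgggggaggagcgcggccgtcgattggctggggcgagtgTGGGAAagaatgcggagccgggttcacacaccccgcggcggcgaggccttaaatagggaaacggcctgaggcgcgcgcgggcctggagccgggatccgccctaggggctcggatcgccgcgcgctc

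The match begins 69 bases before the start in ISG20, 187 in TNFSF10 and 163 in NMI, and CD274 has 2 overlapping matches, the first 208 bases before its start. The HES4 match begins 76 bases before the start. Among 12620 tested genes matched by gene identifier to a promoter, 364 (2.88%) held the response element core on either strand. Of the 70 lower genes 45 were matched, and 9 of them (20%) held it. In the interferon-stimulated list 16 of 28 matched genes (57.1%) held it. The gamma-activated site TTCNNNGAA was in 6.5% of all promoters and 5 of the 45 (11.1%). The NF-kB letters (GGGA, any base, then TTTCC) were in 0.555% of all promoters and 0 of the 45. The short RBPJ core TGGGAA was in 21.9% of all promoters and 11 of the 45 (24.4%). All 4 were searched on both strands. A match is a description of letters, not a bound site.

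TNFSF10, the death ligand TRAIL, had the most negative contrast among called genes with a mean of at least 2 CPM in dEx1 or vector of every line. In SK-N-SH it was at 0.313, 0.646 and 0.406 CPM with dEx1, against 25.0, 16.9 and 14.8 CPM with vector. BON-1 had 2.36, 1.63 and 4.57 CPM with dEx1, against 3.47, 1.88 and 5.39 CPM with vector, and in QGP-1 at 8.34, 9.6 and 20.7 CPM against 9.84, 18.6 and 18.9 CPM. The groups were far apart in SK-N-SH and overlapped in both pancreatic lines. The contrast was -5.06 (SE 0.63, adjusted p = 0.00156), and it passed against BON-1 alone (-5.04, adjusted p = 0.00784) and QGP-1 alone (-5.08, adjusted p = 0.00643). It also passed under all 27 alternatives run, which were other tools, scalings and filters, a replicate block, and leaving out libraries.

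ISG20, an interferon-induced exonuclease that degrades RNA, was at 6.94, 7.89 and 3.56 CPM in SK-N-SH dEx1 libraries, against 93.0, 81.7 and 47.4 CPM in vector libraries. It was at 32.3, 19.1 and 41.4 CPM against 64.2, 21.8 and 53.6 CPM in BON-1, and at 24.4, 19.1 and 46.1 CPM against 31.5, 46.7 and 47.0 CPM in QGP-1. Levels in SK-N-SH lay above most pancreatic libraries with vector and below all of them with dEx1. The contrast was -3.06 (SE 0.55, adjusted p = 0.0244). The call was lost without SK-N-SH dEx1 replicate 1 or 3, SK-N-SH vector replicate 1 or 2, or BON-1 dEx1 replicate 1 (adjusted p up to 0.0933).

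IFIT2, an interferon-induced RNA-binding antiviral protein, was abundant in SK-N-SH. Its level was 149, 216 and 57.0 CPM in SK-N-SH dEx1 libraries, against 2451, 2102 and 1309 CPM in vector libraries. BON-1 had 14.1, 8.92 and 21.1 CPM with dEx1 and 56.3, 18.4 and 67.6 CPM with vector, where the groups overlapped. In QGP-1 it stayed between 10.4 and 16.3 CPM in all 6 libraries. The contrast was -2.92 (SE 0.60, adjusted p = 0.0472). It passed against QGP-1 alone (-3.73, adjusted p = 0.0385) and did not against BON-1 alone (-2.11, adjusted p = 0.337), and the call was lost in 14 of the 27 alternatives, all of them leaving out 1 library (adjusted p up to 0.173).

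HLA-F encodes a non-classical MHC class I heavy chain. It was at 5.80, 9.57 and 2.50 CPM with dEx1 in SK-N-SH, against 108, 100 and 41.3 CPM with vector. In BON-1 it was at 9.47, 7.07 and 8.18 CPM with dEx1, against 33.2, 8.61 and 11.2 CPM with vector, and in QGP-1 at 4.50, 5.18 and 5.61 CPM against 5.47, 6.39 and 5.93 CPM. The SK-N-SH groups were apart, and BON-1 vector replicate 1 stood out in its own group. The contrast was -3.14 (SE 0.62, adjusted p = 0.0389) and lost its call in 15 of the 27 alternatives (adjusted p up to 0.134). Reads of HLA genes can be shared between paralogs, so its level is uncertain.

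**Figure D2:**
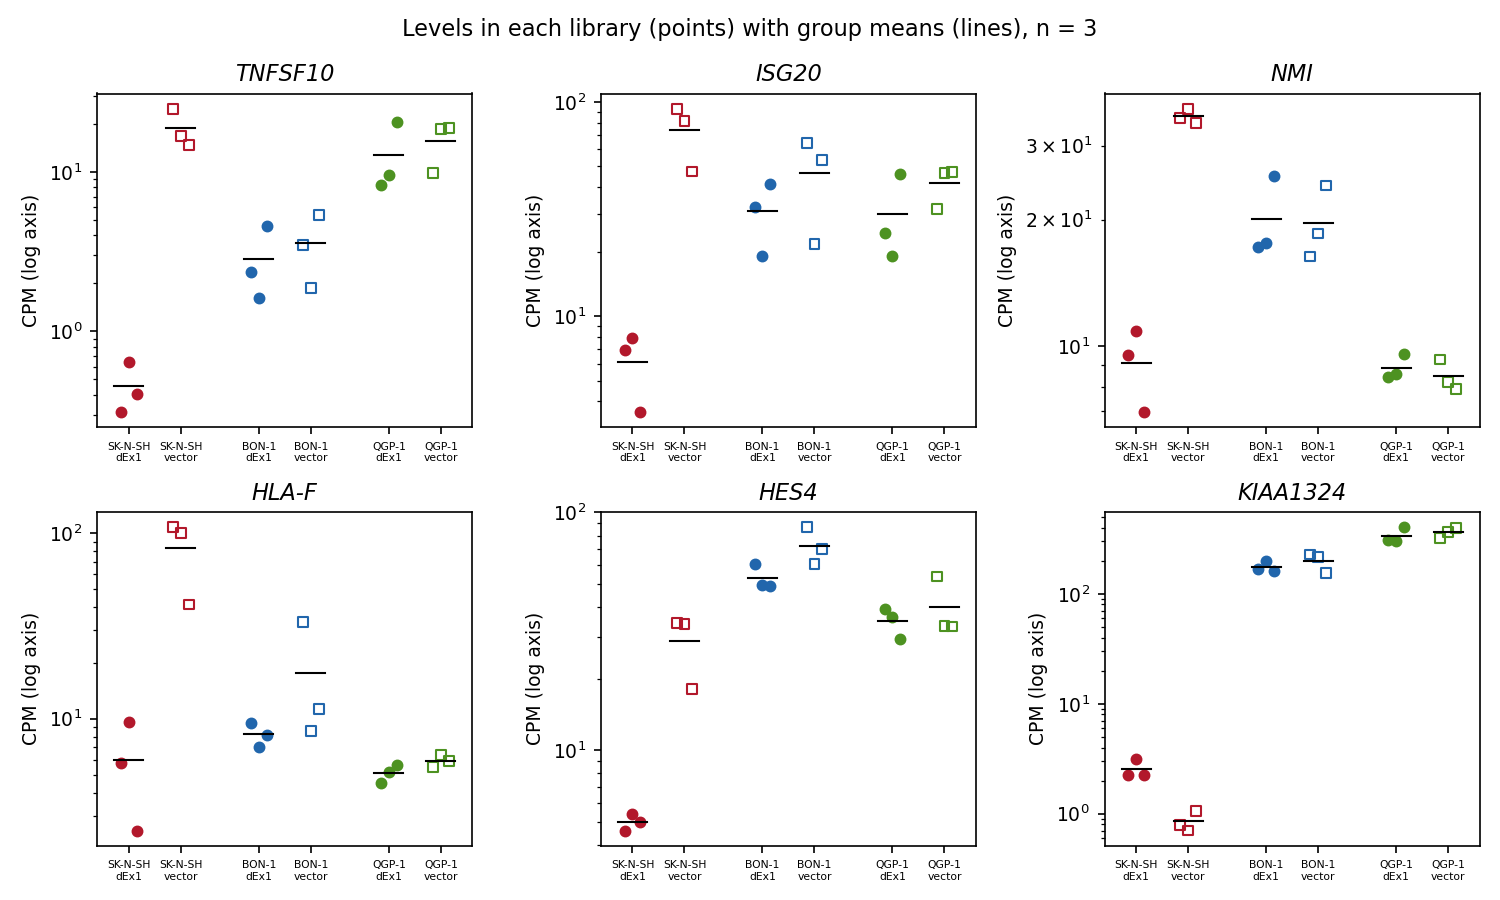
Each point is the level of a gene in 1 library, in CPM on a log axis, and each line a group mean (n = 3). Filled circles are dEx1 and open squares vector, in SK-N-SH (red), BON-1 (blue) and QGP-1 (green). In SK-N-SH the dEx1 points of TNFSF10, ISG20, NMI, HLA-F and HES4 all lie below the vector points and those of KIAA1324 above, while most pancreatic groups overlap.

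Of the 37 interferon-stimulated genes tested, 2 were lower in the contrast (ISG20 and IFIT2), 35 had a negative contrast and the median was -0.97. In SK-N-SH, 9 of the 37 fell with dEx1, against 1.59% of all genes, and the median was -1.49, with all 37 negative. In BON-1 the median was -0.77, with 37 negative and 0 called, and in QGP-1 -0.05, with 23 negative and 0 called. The summed level of the list was 4365 to 9270 CPM in SK-N-SH dEx1 libraries, against 19580 to 23270 CPM in vector libraries, with no overlap. In BON-1 it was 1485 to 2583 CPM against 2113 to 4274 CPM, and in QGP-1 451 to 546 CPM against 489 to 563 CPM, with overlap in both. For 35 of the 37 members the difference between lines did not pass the test. DESeq2 called 8 members in the contrast and 24 in SK-N-SH, where it called 3% and 5.99% of all genes. limma called 2 and 35, where it called 0.516% and 7.17% of all genes. Neither tool called any in BON-1 or QGP-1, where 16 and 1 were at an unadjusted p under 0.05. Over all alternatives the contrast held 0 to 8 of the 37. RSAD2, which makes an antiviral nucleotide, had a mean of 59.8 CPM with dEx1 and 489 CPM with vector in SK-N-SH, and its contrast of -2.53 did not pass (adjusted p = 0.237). For CMPK2, its neighbour and a mitochondrial nucleotide kinase, the contrast was -1.68 (adjusted p = 0.0663).

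Genes for antigen presentation were also lower with dEx1 in SK-N-SH. Of 12 genes for MHC class I presentation tested, 12 had a negative contrast (median -1.01), and 1, HLA-F, passed with edgeR. DESeq2 called 3 (CD74, HLA-F and TAP2), and the fit with a replicate block called 3 (HLA-C, HLA-F and TAP2), all lower. Over all genes these fits called 3% and 1.94% in the contrast. In SK-N-SH 8 fell with dEx1, against 1.59% of all genes. They included HLA-C (mean 784 CPM with dEx1 and 3336 CPM with vector), the light chain B2M (826 and 2145 CPM) and the peptide transporters TAP1 (388 and 928 CPM) and TAP2 (177 and 439 CPM). The median effect was -1.40 in SK-N-SH, -0.54 in BON-1 and -0.20 in QGP-1, with 0 called in both pancreatic lines by edgeR. Without BON-1 vector replicate 1, the library that stood apart, the BON-1 median was -0.18, close to that of QGP-1. The contrasts of HLA-C (-1.44, adjusted p = 0.273) and B2M (-1.03, adjusted p = 0.278) did not pass with edgeR without a replicate block.

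Several secreted immune mediators were at or near 0 in a pancreatic line, so that their contrasts rest on low levels there. CCL5, a chemokine for T cells, was at 16.3 CPM with dEx1 and 530 CPM with vector in SK-N-SH, and below 1 CPM in every pancreatic group. CXCL10 and CXCL11, which also attract T cells, were at 2.86 and 1.54 CPM with dEx1 and 79.3 and 68.1 CPM with vector in SK-N-SH, and at 0 in QGP-1. These 3 fell with dEx1 in SK-N-SH, and 0 of the 4 interferon-induced chemokines passed the contrast (edgeR, 1 at an unadjusted p under 0.05), while DESeq2 called all 3. Of 20 NF-kB targets, 0 passed with edgeR (6 at an unadjusted p under 0.05) and 3 with DESeq2, which called 3% of all genes. Among them 17 were negative and the median contrast was -1.68. Over the 8 targets with at least 2 CPM in every line the median was only -0.37. CXCL8, a neutrophil chemokine, averaged 43.0 CPM with dEx1 and 244 CPM with vector in SK-N-SH, and 80.2 and 45.3 CPM in BON-1, for a contrast of -3.27 (adjusted p = 0.102, and 0.00124 to 0.461 over the alternatives, 4 of which it passed). IL6 averaged 8.48 and 72.0 CPM in SK-N-SH and was at or near 0 in the pancreatic lines.

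**Figure D3:**
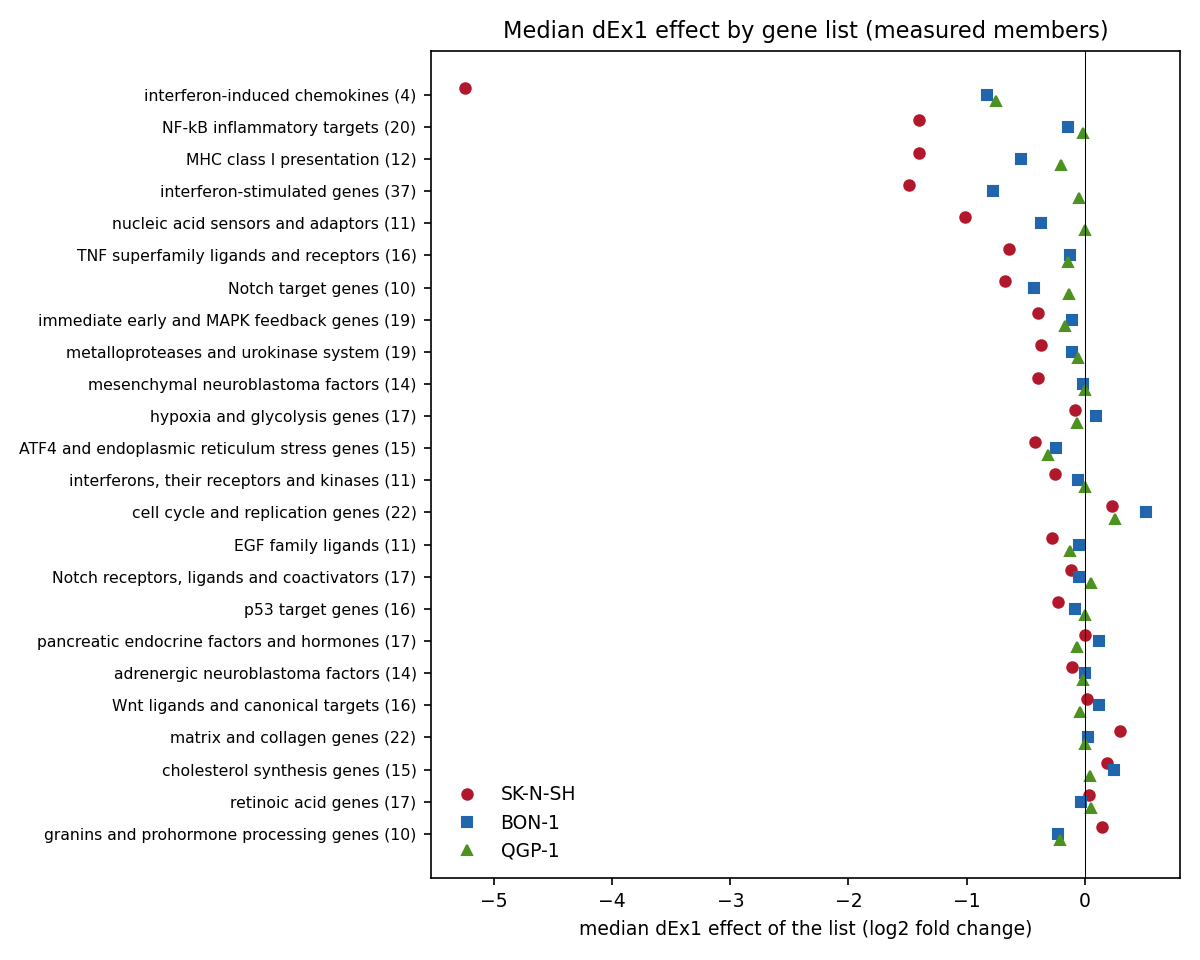
Each row is a gene list with its number of measured members, and the points are the median dEx1 effects (log2 fold change) in SK-N-SH (red circles), BON-1 (blue squares) and QGP-1 (green triangles). The interferon-stimulated median is -1.49 in SK-N-SH, -0.77 in BON-1 and -0.05 in QGP-1, and the cell cycle median is 0.23, 0.52 and 0.26. The BON-1 medians include vector replicate 1, which stood apart.

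HES4, a HES-family repressor known as a Notch target in human cells, was the only Notch target of 10 tested to pass with edgeR, and it did so under all 27 alternatives. DESeq2, the replicate block and the fit without SK-N-SH vector replicate 3 also called HEY2, and they called 3%, 1.94% and 2.23% of all genes. HES4 was at 4.61, 5.42 and 4.98 CPM in SK-N-SH dEx1 libraries, against 34.4, 33.9 and 18.1 CPM in vector libraries. It was at 61.0, 49.5 and 49.1 CPM against 86.7, 60.9 and 70.0 CPM in BON-1, and at 39.4, 36.2 and 29.4 CPM against 53.8, 33.4 and 33.1 CPM in QGP-1. The groups were apart in SK-N-SH, touched in BON-1 and overlapped in QGP-1, and the contrast was -2.20 (SE 0.30, adjusted p = 0.00383). The other 9 did not pass: HES1, the most widely used Notch readout, averaged 8.29 CPM with dEx1 and 10.9 CPM with vector in SK-N-SH (contrast -0.15, adjusted p = 0.997), and HEY1 6.89 and 7.64 CPM (contrast 0.64, adjusted p = 0.587).

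Among 17 Notch receptors, ligands and coactivators, 1 passed with edgeR. DESeq2, and the fit without SK-N-SH vector replicate 3, called 2, DLL1 and RBPJ, both lower, where they called 3% and 2.23% of all genes. The ligand DLL1 was at 1.15, 1.68 and 0.708 CPM with dEx1 in SK-N-SH, against 5.49, 4.90 and 3.07 CPM with vector. It was at 27.3, 45.2 and 29.3 CPM against 18.8, 37.1 and 25.5 CPM in BON-1, and at 72.0, 71.6 and 84.2 CPM against 87.4, 88.7 and 80.1 CPM in QGP-1. The SK-N-SH groups did not overlap and the pancreatic groups did. The contrast was -2.00 (SE 0.38, adjusted p = 0.0325), and 8 of the 27 alternatives ended the call (adjusted p up to 0.126).

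Several further genes that were lower in the contrast act in cell death or immune recognition; they were picked out after their values were seen. MLKL, which permeabilises the membrane in necroptosis, was at 18.8, 23.9 and 16.7 CPM with dEx1 in SK-N-SH and at 66.8, 60.5 and 60.0 CPM with vector, for a contrast of -1.79 (SE 0.22, adjusted p = 0.00152). GSDMD, the pore-forming protein of pyroptosis, was at 0, 0.0108 and 0.0813 CPM against 1.35, 1.06 and 0.549 CPM in SK-N-SH, a level near 0, and at 26.4 to 35.6 CPM in BON-1. CD274, the checkpoint ligand PD-L1, was at 55.0, 70.1 and 43.9 CPM with dEx1 in SK-N-SH, against 202, 169 and 205 CPM with vector, and between 0.934 and 1.95 CPM in all pancreatic libraries. Its contrast of -2.06 (SE 0.27, adjusted p = 0.00222) therefore rests on low pancreatic levels. NMI, which binds STAT proteins and is itself interferon-induced, was at 9.54, 10.9 and 6.98 CPM with dEx1 against 34.9, 36.7 and 34.0 CPM with vector in SK-N-SH. In BON-1 it was at 17.2, 17.6 and 25.4 CPM against 16.3, 18.5 and 24.1 CPM, and in QGP-1 at 8.46, 8.59 and 9.59 CPM against 9.29, 8.22 and 7.93 CPM. The pancreatic groups overlapped closely, and the contrast was -1.99 (SE 0.25, adjusted p = 0.00152).

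In all, 20 of the 75 genes passed under each of the 27 alternatives, 19 of them lower. Besides TNFSF10, HES4, MLKL and NMI, the 14 of these with at least 2 CPM in every line included PI4K2B, a lipid kinase, NBN, a DNA double-strand break repair protein, RBL1, a relative of the retinoblastoma protein, RNF114, a ubiquitin ligase, NT5C3A, a nucleotidase, and SEMA3A, a repulsive axon guidance cue. PI4K2B was at 30.0, 29.9 and 31.0 CPM with dEx1 in SK-N-SH, against 70.2, 62.2 and 81.3 CPM with vector, and its contrast was -1.43 (SE 0.16, adjusted p = 0.00103). NBN was at 68.1, 65.5 and 57.3 CPM against 135, 127 and 120 CPM in SK-N-SH, and at 41.9 to 42.7 CPM against 33.4 to 36.7 CPM in QGP-1. It was thus lower with dEx1 in SK-N-SH, while the QGP-1 libraries were slightly higher with dEx1 (0.26 on the log2 scale, adjusted p = 1). RBL1 averaged 133 CPM with dEx1 and 321 CPM with vector in SK-N-SH, and 61.2 and 42.4 CPM in QGP-1. In the same model, 20 genes passed both against BON-1 and against QGP-1 in the same direction (0.121% of genes), 2 higher (0.0121%) and 18 lower (0.109%). Of these, 16 were among the 20 that passed under every alternative (80% of each set). The contrast is the mean of these 2 differences in the same libraries, so the sets are not independent and their overlap is no separate support.

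**Figure D4:**
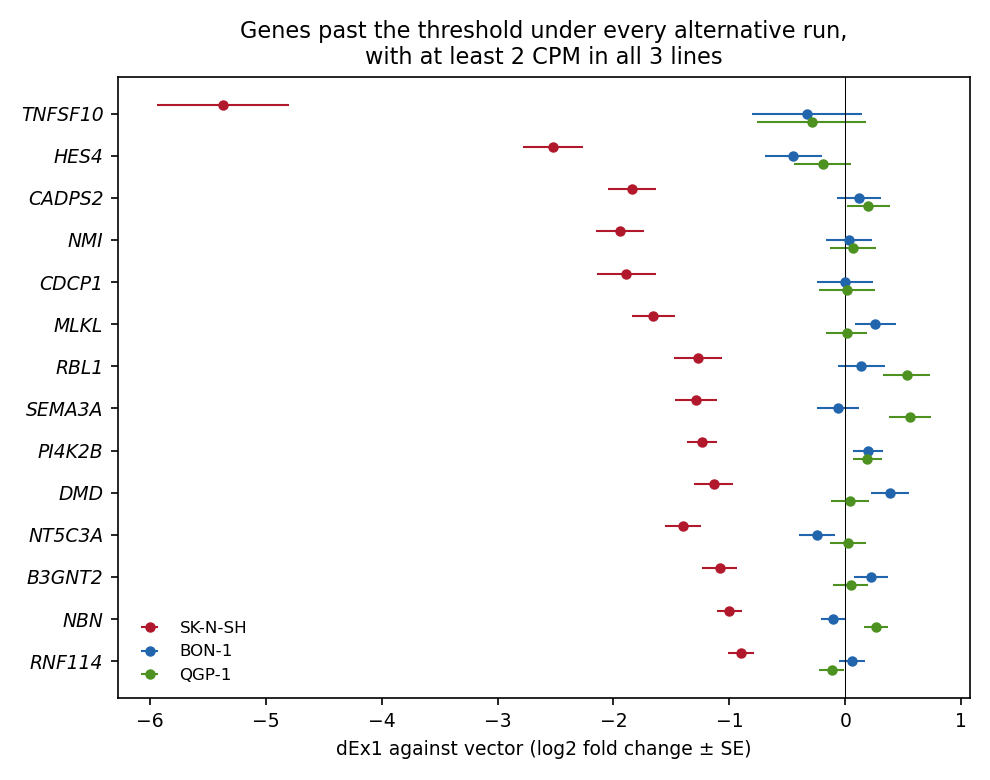
The 14 genes that passed under every alternative and had at least 2 CPM in every line are listed with their dEx1 effects (log2 fold change ± SE) in SK-N-SH (red), BON-1 (blue) and QGP-1 (green). The SK-N-SH effects run from -5.37 (TNFSF10) to -0.90 (RNF114), and the pancreatic effects from -0.45 (HES4) to 0.56 (SEMA3A).

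Other named genes came from different functions. KLF4, a transcription factor of epithelial differentiation and pluripotency, was at 4.50, 5.13 and 1.08 CPM with dEx1 in SK-N-SH, against 48.6, 41.9 and 15.5 CPM with vector, with overlapping groups at 135 to 245 CPM in BON-1 and at 28.4 to 48.5 CPM in QGP-1. Its contrast was -3.15 (SE 0.58, adjusted p = 0.027). ANO9, a phospholipid scramblase of the anoctamin family, was at 0.108, 0.441 and 0.0580 CPM against 6.51, 6.12 and 1.20 CPM in SK-N-SH (contrast -4.05, SE 0.71, adjusted p = 0.024). It was at 16.4, 19.6 and 13.4 CPM against 31.2, 24.3 and 19.6 CPM in BON-1, and at 41.9, 39.3 and 39.8 CPM against 51.4, 48.3 and 44.1 CPM in QGP-1. All ANO9 dEx1 libraries were thus below all vector libraries in every line, with smaller effects in BON-1 (-0.61) and QGP-1 (-0.25). TMEM229B was at 0.505, 0.721 and 0.371 CPM against 2.95, 2.93 and 3.17 CPM in SK-N-SH (contrast -2.37, SE 0.43, adjusted p = 0.0244). ANO9 and TMEM229B thus had little RNA in SK-N-SH even with vector. Of the 27 alternatives, 4 ended the call for KLF4, 5 for ANO9 and 6 for TMEM229B (adjusted p up to 0.0924, 0.0852 and 0.0981).

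GCH1, the rate-limiting enzyme of tetrahydrobiopterin synthesis, had effects of opposite sign. It was at 13.7, 16.4 and 7.57 CPM with dEx1 in SK-N-SH, against 68.3, 22.7 and 31.2 CPM with vector. BON-1 had 69.4, 106 and 66.8 CPM with dEx1, against 32.0, 47.6 and 54.3 CPM with vector, and in QGP-1 at 28.4, 27.5 and 25.1 CPM against 20.4, 21.4 and 21.4 CPM. The dEx1 libraries were all below vector in SK-N-SH and all above it in both pancreatic lines. The pancreatic effects did not pass on their own (adjusted p = 0.994 in BON-1 and 1 in QGP-1). The contrast was -2.30 (SE 0.44, adjusted p = 0.0325) and was lost in 9 of the 27 alternatives (adjusted p up to 0.0981).

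The 5 higher genes included 3 with at least 2 CPM in every line. KIAA1324 (ELAPOR1), a transmembrane protein of endosomes and lysosomes, was at 2.25, 3.13 and 2.23 CPM with dEx1 in SK-N-SH, against 0.793, 0.704 and 1.05 CPM with vector. It was at 169, 199 and 162 CPM against 228, 218 and 155 CPM in BON-1, and at 310, 299 and 404 CPM against 320, 364 and 399 CPM in QGP-1. The gene was thus higher with dEx1 where its level was lowest, and the contrast was 1.71 (SE 0.25, adjusted p = 0.00582). It was lost with limma (adjusted p = 0.102) and in no other alternative. FAM117A was at 14.4, 18.1 and 13.9 CPM against 6.37, 5.75 and 6.07 CPM in SK-N-SH (contrast 1.26, SE 0.23, adjusted p = 0.0244), and its call was lost in 5 of the 27 alternatives (adjusted p up to 0.0768). TUG1, a long non-coding RNA, was at 81.7, 214 and 189 CPM with dEx1 against 37.2, 38.1 and 47.7 CPM with vector in SK-N-SH. It was at 26.1, 30.8 and 30.4 CPM against 148, 51.9 and 49.5 CPM in BON-1, and 32.8 to 142 CPM against 127 to 164 CPM in QGP-1. Its groups were apart in opposite directions in SK-N-SH and BON-1, the contrast was 3.02 (SE 0.61, adjusted p = 0.0442), and 14 of the 27 alternatives ended the call (adjusted p up to 0.177).

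Some calls rest on levels at or near 0, for which a fitted fold change has no meaning of its own. BTC, an EGF receptor ligand and the only gene of 11 EGF family ligands that edgeR called, was at 0 in all 3 SK-N-SH dEx1 libraries, against 0.793, 0.422 and 0.527 CPM with vector, and at 1.49 to 6.49 CPM in the pancreatic libraries. DSP, which anchors desmosomes, was at 0, 0.0430 and 0 CPM against 2.46, 2.49 and 0.650 CPM in SK-N-SH and at 312 to 696 CPM in the pancreatic libraries. For EBI3, a cytokine subunit, SK-N-SH was at 2.33, 3.29 and 3.01 CPM with dEx1 and 16.3, 15.7 and 6.93 CPM with vector. Both pancreatic vector groups were at 0, and the dEx1 libraries there were at most 0.424 CPM. IFT57, a ciliary transport protein, was called although it was at 60.5 to 73.1 CPM in all SK-N-SH libraries, since QGP-1 had 0.0677, 0.174 and 0.0492 CPM with dEx1 and 0 with vector. The call was lost in 3 of the 27 alternatives for EBI3 and in 11 for IFT57. In all, 9 of the 70 lower and 2 of the 5 higher genes had a group at 0 in every library.

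Further called genes were below 2 CPM in both groups of a pancreatic line and above it in SK-N-SH vector. ETV7, an interferon-inducible ETS repressor, was at 8.43, 7.81 and 3.48 CPM with dEx1 in SK-N-SH, against 35.7, 34.5 and 26.6 CPM with vector. GBP1P1, a pseudogene that may share reads with guanylate-binding protein genes, was at 3.81, 4.63 and 1.97 CPM against 40.8, 33.3 and 21.3 CPM. SIDT1, a transmembrane protein of the SID-1 family, was at 0.0842, 0.420 and 0.0580 CPM against 2.97, 1.86 and 2.04 CPM, and FLJ32255 at 3.38, 4.07 and 2.88 CPM against 18.4, 15.9 and 12.0 CPM. The SK-N-SH groups were apart for each of these. In BON-1, SIDT1 averaged 25.5 CPM with dEx1 and 35.6 CPM with vector, FLJ32255 9.61 and 11.1 CPM, and ETV7 2.84 and 2.92 CPM. For these genes only QGP-1 was below 2 CPM, while GBP1P1 was below it in both pancreatic lines. Of the 27 alternatives, 16 ended the call for ETV7, 13 for SIDT1, 7 for GBP1P1 and 4 for FLJ32255.

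The remaining lists had 0 genes past the contrast with edgeR except for TNFSF10 among 16 TNF superfamily genes. DESeq2, which called 3% of all genes, further called WNT3 as higher, and as lower IFNB1, IFIH1, MMP1, MMP10, MMP13, FAS, ATF3, JUNB, HK2, TH, IRF2 and CD68. Of these, the collagenase MMP1 came closest with edgeR and passed in 10 of the 27 alternatives (adjusted p 0.000299 to 0.194). It averaged 22.6 CPM with dEx1 and 76.7 CPM with vector in SK-N-SH, but 11.8 and 2.92 CPM in QGP-1. MMP10 averaged 3.59 and 7.97 CPM in SK-N-SH and 29.1 and 9.77 CPM in QGP-1. For both, all QGP-1 dEx1 libraries were above all QGP-1 vector libraries. TH was at most 0.0522 CPM in SK-N-SH, so its contrast rests on low pancreatic levels (BON-1 means 0.841 and 0.244 CPM). For 22 cell cycle and replication genes the median effect was 0.23 in SK-N-SH, 0.52 in BON-1 and 0.26 in QGP-1, with 0 called in any line by edgeR and 0 at an unadjusted p under 0.05. In BON-1 they summed to 4218 to 4826 CPM with dEx1 and 917 to 4851 CPM with vector. MCM5 was at 28.4 CPM in BON-1 vector replicate 1, the library that stood apart, against 107 and 94.2 CPM in replicates 2 and 3. The BON-1 median therefore depends on that library. The 14 adrenergic neuroblastoma factors had a median contrast of 0.02 and the 14 mesenchymal ones -0.20. Nucleic acid sensors had a median contrast of -0.68 (11 genes). IFIH1, the double-stranded RNA sensor MDA5, averaged 108 CPM with dEx1 and 321 CPM with vector in SK-N-SH, and 58.7 and 85.9 CPM in BON-1. Its contrast of -1.31 did not pass with edgeR (adjusted p = 0.133) and did with DESeq2 and with a replicate block (lowest adjusted p 0.0201). Of the 4 tested leukocyte markers 0 passed the contrast with edgeR, and CD68 did with DESeq2 and with a replicate block (lowest adjusted p 0.00997). They summed to 80.3 to 95.4 CPM with dEx1 and 222 to 324 CPM with vector in SK-N-SH. Nearly all of this was CD68, a lysosomal protein that many cells make, at 84.5 and 277 CPM, whereas PTPRC was at 0.359 and 0.599 CPM and SPI1 at 0.0610 and 0 CPM.

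Full-length MAML3 was tested in the same lines against the same vector libraries, and the following 4 genes were chosen after their values were seen. TNFSF10 was at 14.5 to 31.3 CPM in the 3 SK-N-SH libraries with full-length MAML3, HES4 at 19.8, 26.7 and 24.9 CPM and NMI at 39.2, 37.6 and 59.5 CPM. For all 3 genes these libraries lay above every SK-N-SH dEx1 library, and for TNFSF10 and HES4 they overlapped the SK-N-SH vector libraries. KLF4, at 9.21, 9.85 and 11.6 CPM with full-length MAML3 in SK-N-SH, lay above every dEx1 library and below every vector library.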

How the data were processed

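RNA was measured by sequencing of TruSeq mRNA libraries from 18 dEx1 and vector samples. Per the submitters' processing notes, Trimmomatic, HISAT2 and StringTie were used with hg19, and versions are not given in the sources used here. The authors deposited estimated counts per gene as whole numbers, so no rounding was needed. The conversion to counts, the annotation and strandedness are not given in the sources used here, and what 1 unit is worth in reads is unknown, which limits the reading of levels near 0. Of 23234 lines, 4 symbols were listed a second time with identical values, which left 23230 symbols.

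All 6 groups were fitted in 1 model with edgeR 4.0.16 (R 4.3.3): filterByExpr, TMM scaling, quasi-likelihood F test, Benjamini-Hochberg adjustment over 16481 genes, threshold 0.05. Adjusted p values are from this test except where DESeq2 or limma is named. SE is the fitted log2 fold change divided by the root of F. CPM are scaled by TMM. The replicates are biological per the labels. The procedure was checked on simulated data with differences planted in genes measured in every group. It recovered 2 of 50 planted 1.5-fold differences, 16 of 50 at 2-fold, 46 of 50 at 4-fold and 49 of 50 at 8-fold. Of its 117 calls, 4 were false. Differences of 2-fold or less were thus often missed. Alternatives were DESeq2 1.42.0 (size factors, Wald test), limma 3.58.1 (voom with weights), other filters on low counts, all 27 libraries, MAML3 left out of the scaling, a replicate block, and leaving out libraries. Figures used matplotlib 3.10.9.

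Genes were named by rule: MAML3; the 8 most negative and 8 most positive contrasts among called genes with a mean of at least 2 CPM in every line; up to 5 per direction that miss this in a pancreatic line; and up to 4 called members of each list, or 2 as values. The comparison, members and lists were chosen with earlier results of these data known.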

Additional observations from a re-analysis of the deposited data

Results flagged for a closer look

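The dEx1 effects of 20 named genes differed between SK-N-SH and the mean of the pancreatic lines by the test of the difference itself. Against each pancreatic line alone, TNFSF10, HES4, KIAA1324 and BTC passed. KLF4, ISG20, GCH1, DLL1, TUG1, ETV7, FLJ32255 and EBI3 passed against neither line alone, and the rest passed against QGP-1 only. Of those with at least 2 CPM in every line, the contrast was -5.06 for TNFSF10, -4.05 for ANO9, -3.15 for KLF4, -3.14 for HLA-F, -3.06 for ISG20, -2.92 for IFIT2, -2.37 for TMEM229B, -2.30 for GCH1 and -2.20 for HES4. It was 3.02 for TUG1, 1.71 for KIAA1324 and 1.26 for FAM117A. DLL1 was at -2.00. Among genes below 2 CPM in at least 1 pancreatic line, SIDT1 was at -3.69, GBP1P1 at -2.64, ETV7 at -2.19 and FLJ32255 at -2.09. The fitted values of EBI3 (-9.19), BTC (-8.90) and IFT57 (-3.17) depend on groups at 0 and are not sizes of effect.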

How the results depend on the processing

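Both the count of genes past the contrast (75) and the share of them that were lower (93.3%) moved with the setting, and that share was 57.3% with the pair of libraries named below left out, 59.8% without SK-N-SH vector replicate 3 and 69.9% by DESeq2. DESeq2's Wald test gave 495 (149 higher, 346 lower), all 27 libraries in 1 fit gave 148, and leaving out SK-N-SH vector replicate 3 together with BON-1 vector replicate 1, which stood apart, gave 501 (214 higher, 287 lower). These settings call all 75, 71 and all 75 of the same genes. Leaving out 1 library at a time gave 29 to 376: 37 without SK-N-SH dEx1 replicate 1, 38 without its replicate 3, 32 without SK-N-SH vector replicate 2, 38 and 48 without BON-1 dEx1 replicates 1 and 2, and 40 without QGP-1 vector replicate 2. limma shared 58 of the 75. The cause of these moves was not tested. With a replicate block, 319 genes passed for the contrast (85 higher, 234 lower), 159 for SK-N-SH minus BON-1, 182 for SK-N-SH minus QGP-1 and 965 in SK-N-SH. The fit behind the 75 genes did not pair libraries by number. In SK-N-SH, deviations from the group mean correlated at 0.065 to 0.406 for same-numbered libraries and at -0.348 to 0.243 for differently numbered ones. These ranges were 0.097 to 0.341 and -0.27 to 0.118 in BON-1, and -0.134 to 0.356 and -0.469 to 0.292 in QGP-1. Whether the numbers pair the libraries was not tested, and the values do not exclude it. For SK-N-SH minus BON-1 (20 genes), DESeq2 gave 283, limma 13, 27 libraries 54 and the pair left out 169, with 10 to 161 leaving out 1 library. For SK-N-SH minus QGP-1 (52), these were 335 by DESeq2, 87 with 27 libraries and 361 with the pair left out, and 16 to 224. For BON-1 minus QGP-1 (0), DESeq2 gave 31 and the pair left out 2, with 0 to 3. The SK-N-SH effect alone (323) became 987 by DESeq2, 1182 by limma, 558 with 27 libraries and 1367 with the pair left out, with 90 to 940. In BON-1 (0) they were 41, 4, 1 and 2, with 0 to 7, and in QGP-1 (0) 81, 5, 2 and 2, with 0 to 4. The contrast changed sign in 3 cases, none of them called: MCM5 (0.040) and MCM3 (0.029) with the pair left out, and GATA3 (-0.61 without BON-1 vector replicate 3, within a range of -0.61 to 1.70 when libraries were left out). The median contrast of the interferon-stimulated list ran from -1.16 to -0.74. Levels near 0 are limited by the unknown worth of 1 count.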
